A study of Homo sapiens with 8 samples.

Results

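The chromatin remodeller genes described here code for the ATP-dependent remodellers outside the BAF complexes, namely the CHD, ISWI and INO80 families, the NuRD complex and 5 further SNF2-type ATPases, with subunits of their complexes. They were taken by symbol from a list drawn up with earlier results of these data known, and number 41 of the 63677 gene identifiers in the count tables. All 41 symbols were found. For 6 of them a further identifier of the same name held 0 counts and was left aside. RNA was measured in MOLT-4 and DND-41 cells, 2 established human lines from T-cell acute lymphoblastic leukaemia (T-ALL), after 8 h with 100 nM ACBI-1 or after 8 h with the solvent DMSO. There were 4 groups of 2 libraries: MOLT-4 with ACBI-1, MOLT-4 with DMSO, DND-41 with ACBI-1 and DND-41 with DMSO. No genetic change made for the study is named in the labels of either line. ACBI-1 is a bifunctional degrader that brings the BAF bromodomain proteins SMARCA2, SMARCA4 and PBRM1 to the VHL ubiquitin ligase. The comparison addresses how the transcripts of the other remodellers stood when BAF was targeted.

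Remodellers are SNF2-type motors that hydrolyse ATP to slide, evict, space or exchange nucleosomes. ISWI motors space nucleosomes into regular arrays, INO80 and SRCAP act on nucleosomes with the variant histone H2A.Z, and CHD motors carry paired chromodomains. NuRD joins a CHD motor to the histone deacetylases HDAC1 and HDAC2 through MTA, MBD and GATAD2 subunits, most of which exist as paralogs that replace each other. NuRD is known in lymphoid cells as a partner of Ikaros-family factors and as a regulator of thymocyte development.

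Each library held between 19860759 and 20239888 counts. Levels are given in CPM, counts relative to the effective size of each library, and 3 counts were worth between 0.137 and 0.165 CPM. Each log2 fold change compares ACBI-1 with DMSO and carries its standard error (SE, 2 libraries against 2), and a gene was called at an edgeR quasi-likelihood p below 0.05 after Benjamini-Hochberg adjustment over all genes tested. The labels do not state separate cultures, so these p-values measure the spread between libraries, which may be technical. In bulk RNA, fewer cells with a transcript and less of it per cell cannot be told apart. The summed level of 10 T-lineage markers was 2836 to 2854 CPM in MOLT-4 with ACBI-1, 3393 to 3511 CPM in MOLT-4 with DMSO, 5112 to 5419 CPM in DND-41 with ACBI-1 and 4929 to 5024 CPM in DND-41 with DMSO. These markers moved both ways: CD3G rose and 7 of 10 fell in MOLT-4, and CD3D, CD3E and CD3G rose and 6 of the 9 tested fell in DND-41. The 5 myeloid markers summed to at most 0.696 CPM in any library, and of the B-lineage markers PAX5 and MS4A1 were at 0 counts throughout, while CD79A had 935 and 979 CPM in DND-41 with ACBI-1, 1568 and 1586 CPM in DND-41 with DMSO and at most 7.14 CPM in MOLT-4. The second MOLT-4 libraries stood apart, because 5 stromal or epithelial markers, chiefly COL1A1, summed to 0.688 and 14.9 CPM with ACBI-1 and 3.94 and 69.9 CPM with DMSO, against at most 0.19 CPM in any DND-41 library. EPCAM was at 0 counts in every library. Their part in the results was not tested, and MOLT-4 calls on remodellers that were lost without both second libraries, or whose value moved by over 1.5 times, are given with and without them.

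The promoters of 4 genes are printed because they carry the main contrasts below: CHD4 and GATAD2A fell in both lines, CHD3 is the CHD4 paralog whose change passed in neither line, and BAZ2B rose furthest in MOLT-4. They come from RefSeq on GRCh38.p14, while the counts were made on hg19, and each runs 5′ to 3′ on the gene's strand with 250 bases before the start and 50 after it. RefSeq promoters were matched for 36 of the 41 genes, with a single promoter kept per gene. Capitals mark an ETS-type motif (CCGGAAG, or CTTCCGG on the other strand) and a CCAAT box (CCAAT, or ATTGG on the other strand). The intervals are chr12:6606402-6606701, minus strand, for CHD4, chr17:7888539-7888838, plus strand, for CHD3, chr19:19385593-19385892, plus strand, for GATAD2A, and chr2:159712393-159712692, minus strand, for BAZ2B.
CHD4: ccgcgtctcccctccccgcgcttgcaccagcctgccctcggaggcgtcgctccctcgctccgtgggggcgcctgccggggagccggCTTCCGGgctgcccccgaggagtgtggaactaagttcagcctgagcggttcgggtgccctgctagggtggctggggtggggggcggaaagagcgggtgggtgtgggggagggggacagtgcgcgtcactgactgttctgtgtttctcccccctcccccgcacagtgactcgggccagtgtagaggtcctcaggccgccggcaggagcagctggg
CHD3: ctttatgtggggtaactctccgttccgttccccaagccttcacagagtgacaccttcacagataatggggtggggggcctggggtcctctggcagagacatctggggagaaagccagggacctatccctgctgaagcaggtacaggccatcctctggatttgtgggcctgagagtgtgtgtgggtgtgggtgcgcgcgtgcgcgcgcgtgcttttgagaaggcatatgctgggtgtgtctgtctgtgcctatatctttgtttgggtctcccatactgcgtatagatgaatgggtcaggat
GATAD2A: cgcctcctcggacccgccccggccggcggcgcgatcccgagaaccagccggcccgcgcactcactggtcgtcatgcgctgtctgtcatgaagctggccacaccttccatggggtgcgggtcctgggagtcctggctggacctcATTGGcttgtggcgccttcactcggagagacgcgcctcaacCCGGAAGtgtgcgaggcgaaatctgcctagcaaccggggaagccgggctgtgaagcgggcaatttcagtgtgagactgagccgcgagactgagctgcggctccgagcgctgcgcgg
BAZ2B: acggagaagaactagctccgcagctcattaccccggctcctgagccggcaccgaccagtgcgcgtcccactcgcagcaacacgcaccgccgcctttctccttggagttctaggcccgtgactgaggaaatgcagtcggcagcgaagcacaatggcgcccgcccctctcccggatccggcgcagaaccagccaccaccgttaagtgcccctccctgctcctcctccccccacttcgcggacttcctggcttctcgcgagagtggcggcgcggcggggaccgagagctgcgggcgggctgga

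On both strands, CCGGAAG was found in 7 of the 36 promoters, those of CHD4, MTA2, GATAD2A, EP400, INO80B, INO80E and CHD1L, against 10.7% of 27305 RefSeq promoters of the same length. It was in 2 of 5 matched promoters of genes that fell in both lines and 1 of 8 that rose in both. CCAAT was in 11 of 36, against 35.7% of all promoters, and in 3 of 5 that fell in both lines and 2 of 8 that rose in both. These promoters are too few to compare falls with rises. The RUNX-type letters TGTGGT were in 4 of 36 (13.1% of all), the YY1-type AAGATGGC in 2 of 36 (3.03%), the E-box CACGTG in 1 of 36 (7.43%) and TATAAA in 1 of 36 (12%). The CRE letters TGACGTCA, held by 1.98% of all promoters, were in 0 of the 36. The 27305 promoters were not limited to genes tested here, so they are an unlike set, for the motif shares and for what follows. The remodeller promoters held a median of 28 CG dinucleotides, against 14 over all promoters. The CHD3 window held 10 and the CHD4 window 24. CHD3 was not alone at the low end, since the windows of CHD2 (3) and BAZ2A (7) held fewer and that of INO80D held 11.

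After ACBI-1 some remodeller transcripts rose and others fell, most of them by little. Of the 40 tested genes, 12 rose and 9 fell in MOLT-4, leaving 19 without a call, so that 52.5% were called where 45.1% of all genes tested were called. In DND-41 there were 13 rises and 8 falls, again 52.5%, against 43.2% of all genes. The share called was thus near the background in both lines. The median log2 fold change over the remodellers was -0.0047 in MOLT-4, against 0.00095 over all genes, and 0.043 in DND-41, against 0.010 over all genes. Of the calls, 3 genes in MOLT-4 and 5 in DND-41 had a change of at least 1.5-fold, 7.5% and 12.5% of the 40, against 19% of all genes in MOLT-4 and 17.3% in DND-41. SMARCA1, the second ISWI ATPase, was too low to test, at 0 and 0.110 CPM in MOLT-4 with ACBI-1, 0.158 and 0.546 CPM in MOLT-4 with DMSO and 0 counts in every DND-41 library. Scaled by library size alone, MOLT-4 gave 8 rises and 12 falls, as the median of all genes moved to -0.079. Without both second MOLT-4 libraries, 8 rose and 7 fell, and without the first DND-41 DMSO library 8 rose in DND-41.

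**Figure D1:**
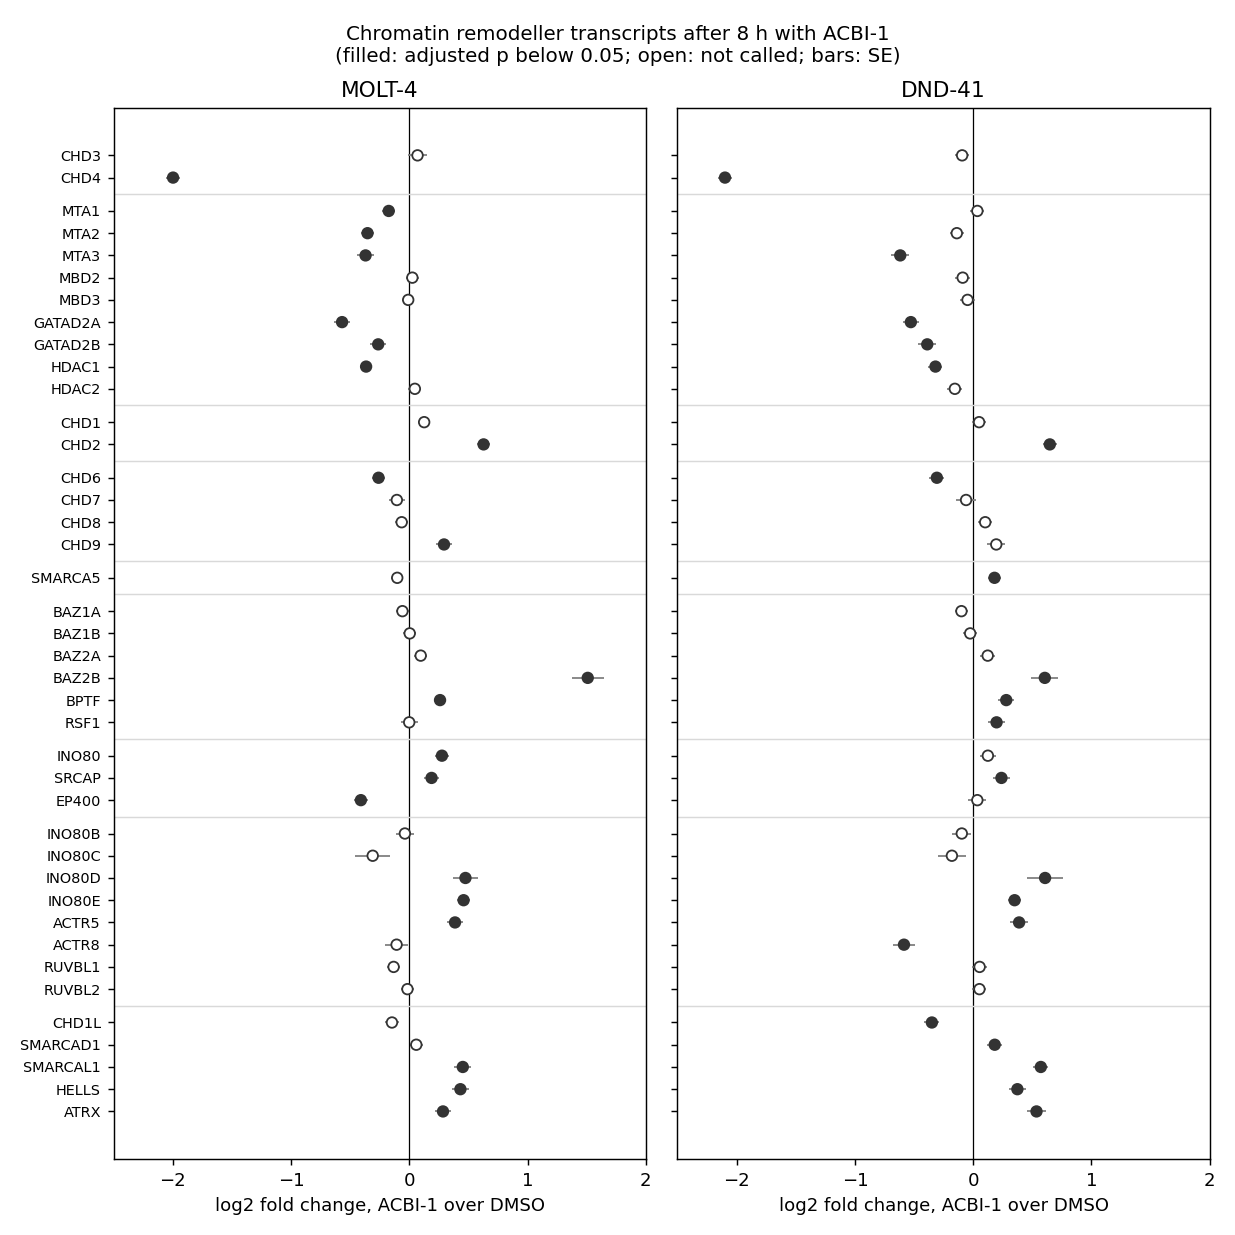
Log2 fold change, ACBI-1 over DMSO (x axis), of the 40 tested remodeller genes (y axis, grouped by complex) in MOLT-4 on the left and DND-41 on the right, with bars for the SE; filled points passed an edgeR adjusted p of 0.05. CHD4 lies at -2.00 and -2.10, far left of the others, and no NuRD gene has a filled point to the right of 0.

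NuRD was the group whose called members all fell. Of its 11 listed genes, 7 fell in MOLT-4, with 4 left uncalled, and 5 fell in DND-41, with 6 left uncalled. Among all genes, 24.4% fell in MOLT-4 and 23.2% fell in DND-41. No NuRD gene rose in either line by edgeR, at an adjusted or an unadjusted p below 0.05, or by DESeq2. The median log2 fold change over the 11 was -0.26 in MOLT-4 and -0.15 in DND-41. The 29 other tested remodellers gave 12 rises and 2 falls in MOLT-4, and 13 rises and 3 falls in DND-41, against 20.7% and 20% of all genes that rose in those lines. Across the alternatives run, NuRD counts stayed at 0 rises, with 6 or 7 falls in MOLT-4 and 5 to 7 in DND-41.

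The steepest change of any remodeller was in CHD4, the main motor of NuRD. MOLT-4 cells had 142 and 138 CPM with ACBI-1 and 546 and 567 CPM with DMSO. DND-41 cells had 97.0 and 100.1 CPM with ACBI-1 and 422 and 430.5 CPM with DMSO. Treated libraries lay at 0.251 times the control level in MOLT-4 and 0.234 times in DND-41, with no overlap and little spread. The log2 fold change was -2.00 ± 0.058 in MOLT-4 (edgeR adjusted p = 1.72e-15) and -2.10 ± 0.06 in DND-41 (edgeR adjusted p = 6.83e-12). Only 376 of 14239 genes (2.64%) fell further in MOLT-4, and 154 of 14008 (1.1%) in DND-41. The log2 fold change in MOLT-4 minus that in DND-41 was 0.12 ± 0.078, or -0.0053 with library size alone. The difference of 0.12 did not pass (edgeR adjusted p = 0.382), which does not show that the falls were equal. Without both second MOLT-4 libraries the MOLT-4 value was -1.96 (edgeR adjusted p = 3.18e-09).

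CHD3, the alternative NuRD motor, did not pass in either line. It had 27.2 and 31.0 CPM with ACBI-1 and 28.3 and 26.9 CPM with DMSO in MOLT-4 (0.07 ± 0.079, edgeR adjusted p = 0.507). In DND-41 it had 153 and 163 CPM with ACBI-1 and 174 and 167 CPM with DMSO (-0.093 ± 0.06, edgeR adjusted p = 0.234), though without the second DND-41 ACBI-1 library it was called as a fall (-0.14, edgeR adjusted p = 0.0380). CHD3 was thus several-fold higher in DND-41 than in MOLT-4 under either treatment. To compare levels between genes, CPM was divided by the merged exon length of each gene, taken by identifier from GENCODE 29, which gives CPM per kb. That length pools the exons of all annotated transcripts of a gene, so orders and shares per kb depend on it.

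Per kb, CHD4 stood far above CHD3 in MOLT-4, at 11.1 and 10.9 against 2.79 and 3.18 with ACBI-1 and 43.0 and 44.6 against 2.91 and 2.76 with DMSO. In DND-41 with ACBI-1 the order was turned, with CHD4 at 7.63 and 7.87 and CHD3 at 15.7 and 16.7 per kb. In DND-41 with DMSO, CHD4 was at 33.2 and 33.9 and CHD3 at 17.8 and 17.1 per kb. CHD4 made up 80.0% and 77.4% of the pair in the MOLT-4 libraries with ACBI-1 and 93.7% and 94.2% with DMSO. Its share was 32.7% and 32.0% in DND-41 with ACBI-1 and 65.0% and 66.5% with DMSO. Among the 41 genes ordered by mean level per kb, CHD4 was at place 24 with ACBI-1 and place 6 with DMSO in MOLT-4, and at place 29 with ACBI-1 and place 8 with DMSO in DND-41.

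**Figure D2:**
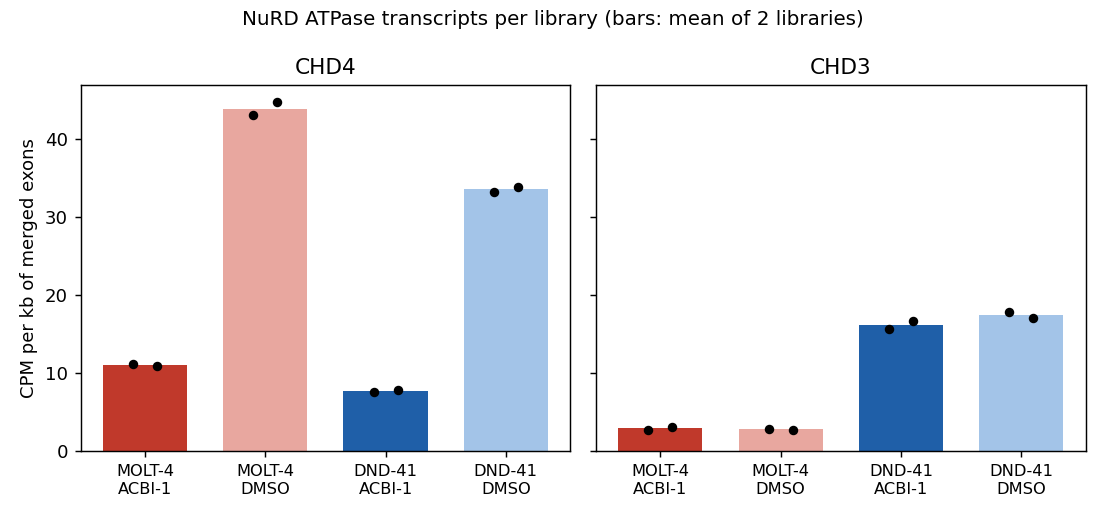
Level in CPM per kb of merged exons (y axis) of CHD4 and CHD3 by group (x axis), with points for libraries and bars for the mean of 2 libraries. CHD4 is lower with ACBI-1 in both lines, and CHD3 is above CHD4 in DND-41 with ACBI-1 alone.

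GATAD2A and GATAD2B are the p66 subunits that tie the MBD protein to the CHD motor. GATAD2A had 193 and 163 CPM with ACBI-1 and 269.6 and 257 CPM with DMSO in MOLT-4, and 179 and 203 CPM with ACBI-1 and 278 and 277 CPM with DMSO in DND-41. All treated libraries lay below all controls of their line. It fell in each, -0.57 ± 0.067 in MOLT-4 (edgeR adjusted p = 8.82e-07) and -0.53 ± 0.065 in DND-41 (edgeR adjusted p = 1.40e-05). GATAD2B also fell, to 103 and 104 CPM with ACBI-1 against 136 and 113 CPM with DMSO in MOLT-4 (-0.26 ± 0.068, edgeR adjusted p = 0.00355). It had 90.9 and 108 CPM with ACBI-1 and 128 and 135 CPM with DMSO in DND-41 (-0.39 ± 0.076, edgeR adjusted p = 8.43e-04). The MOLT-4 call on GATAD2B rested on 1 control: without the first MOLT-4 DMSO library it was -0.12 (edgeR adjusted p = 0.137). Without both second libraries it was -0.41 (edgeR adjusted p = 0.0161). GATAD2A remained the more abundant p66 transcript per kb, at 70.3% and 66.4% of the pair with ACBI-1 and 71.6% and 74.3% with DMSO in MOLT-4. In DND-41 its share was 71.4% and 70.3% with ACBI-1 and 73.3% and 72.2% with DMSO.

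HDAC1, one of the deacetylases of NuRD and of other corepressors, fell in both lines, while its paralog HDAC2 did not pass in either. HDAC1 had 162 and 162 CPM with ACBI-1 and 207 and 209.6 CPM with DMSO in MOLT-4 (-0.36 ± 0.052, edgeR adjusted p = 9.26e-06). DND-41 cells had 143 and 135 CPM with ACBI-1 and 178 and 172 CPM with DMSO (-0.32 ± 0.059, edgeR adjusted p = 5.48e-04). Replicates lay close together and the groups did not overlap. HDAC2 had 146 and 141 CPM with ACBI-1 and 144 and 134 CPM with DMSO in MOLT-4 (edgeR adjusted p = 0.515). The DND-41 levels were 143 and 129.8 CPM with ACBI-1 and 152 and 155 CPM with DMSO (-0.15 ± 0.063, edgeR adjusted p = 0.0594). The DND-41 value of HDAC2 was close to the threshold and was called as a fall without the first ACBI-1 library (-0.23, edgeR adjusted p = 6.29e-04), with all 8 libraries in 1 fit (edgeR adjusted p = 0.0325) and with a minimum count of 50 (edgeR adjusted p = 0.0482). HDAC1 stayed the larger per kb, at 81.2% and 81.8% of the pair with ACBI-1 and 84.9% and 86.0% with DMSO in MOLT-4. In DND-41 its share was 79.6% and 80.2% with ACBI-1 and 82.0% and 81.3% with DMSO. These shares rest on merged exon lengths of 3.963 kb for HDAC1 and 15.461 kb for HDAC2. In CPM the levels of the pair were much closer.

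The MTA proteins are the scaffolds that bind the deacetylases. MTA3, the lowest of the paralogs per kb, had 38.3 and 36.9 CPM with ACBI-1 and 48.1 and 48.8 CPM with DMSO in MOLT-4 (-0.37 ± 0.07, edgeR adjusted p = 2.44e-04). Levels in DND-41 were 25.6 and 23.0 CPM with ACBI-1 and 36.9 and 38.4 CPM with DMSO (-0.62 ± 0.078, edgeR adjusted p = 1.72e-05). MTA3 therefore fell in both lines, and by at least 1.5-fold in DND-41. MTA2, the most abundant paralog per kb, had 249 and 253 CPM with ACBI-1 and 317 and 321 CPM with DMSO in MOLT-4. It fell there (-0.35 ± 0.053, edgeR adjusted p = 2.00e-05). In DND-41 it had 238 and 224 CPM with ACBI-1 and 257 and 257 CPM with DMSO (-0.14 ± 0.058, edgeR adjusted p = 0.0690), and it was called as a fall there without the first ACBI-1 library (-0.18, edgeR adjusted p = 0.00335) and with all 8 libraries in 1 fit (edgeR adjusted p = 0.0326). For neither MTA2 nor MTA1 did the test of the difference between lines pass (edgeR adjusted p = 0.105 for MTA2 and 0.141 for MTA1). MTA1 had 247 and 233 CPM with ACBI-1 and 265 and 275 CPM with DMSO in MOLT-4 (-0.17 ± 0.055, edgeR adjusted p = 0.0150). That MTA1 call was lost without the second MOLT-4 ACBI-1 library (-0.12, edgeR adjusted p = 0.206), without the second MOLT-4 DMSO library (-0.14, edgeR adjusted p = 0.0653) and without both (-0.11, edgeR adjusted p = 0.402). MTA1 had 299.8 and 322 CPM with ACBI-1 and 306 and 307 CPM with DMSO in DND-41, where it did not pass. MBD2, which binds methylated DNA, and MBD3, its alternative in NuRD, did not pass in either line, with log2 fold changes between -0.089 and 0.026.

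Outside NuRD, the CHD motor with the clearest change was CHD2, a SNF2 motor of active genes related to CHD1. It had 141 and 139 CPM with ACBI-1 and 91.9 and 89.0 CPM with DMSO in MOLT-4. DND-41 cells had 208 and 214 CPM with ACBI-1 and 132 and 139 CPM with DMSO. CHD2 rose in both, 0.63 ± 0.052 in MOLT-4 (edgeR adjusted p = 7.47e-09) and 0.65 ± 0.058 in DND-41 (edgeR adjusted p = 5.11e-07), with no overlap of groups. CHD1, which binds H3K4 methylation through its chromodomains, did not pass, at 160.0 and 163 CPM with ACBI-1 and 149 and 146 CPM with DMSO in MOLT-4 (edgeR adjusted p = 0.0530). That value was close to the threshold and was called as a rise with DESeq2-type size factors (0.13, edgeR adjusted p = 0.0476). In DND-41 CHD1 had 94.6 and 97.4 CPM with ACBI-1 and 95.1 and 92.0 CPM with DMSO (edgeR adjusted p = 0.541). Per kb, CHD2 made up 35.2% and 34.4% of the pair with ACBI-1 and 27.5% and 27.2% with DMSO in MOLT-4. In DND-41 the CHD2 share was 57.5% and 57.4% with ACBI-1 and 46.1% and 48.2% with DMSO. Per kb, CHD2 was thus above CHD1 in DND-41 only with ACBI-1. In CPM it was above CHD1 there under both treatments. The order per kb depends on the lengths used, 16.96 kb for CHD2 and 10.437 kb for CHD1.

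Of CHD6 to CHD9, a further CHD subfamily, CHD6 fell in both lines. It had 119.8 and 119.8 CPM with ACBI-1 and 137 and 149 CPM with DMSO in MOLT-4 (-0.26 ± 0.055, edgeR adjusted p = 7.17e-04). The DND-41 levels were 100.3 and 110.1 CPM with ACBI-1 and 129.7 and 133 CPM with DMSO (-0.31 ± 0.063, edgeR adjusted p = 0.00126). CHD9 was called as a rise in MOLT-4, at 53.4 and 49.0 CPM with ACBI-1 and 42.1 and 41.2 CPM with DMSO (0.29 ± 0.071, edgeR adjusted p = 0.00222). Its DND-41 values, 89.9 and 107 CPM with ACBI-1 and 85.0 and 88.5 CPM with DMSO, narrowly missed (0.20 ± 0.077, edgeR adjusted p = 0.0526), and were called as a rise without the first ACBI-1 library (0.31, edgeR adjusted p = 1.10e-05). Without both second MOLT-4 libraries neither MOLT-4 call held, with CHD6 at -0.20 (edgeR adjusted p = 0.141) and CHD9 at 0.33 (edgeR adjusted p = 0.0687). CHD9 also missed when MOLT-4 was scaled by library size alone (0.21, edgeR adjusted p = 0.0569). CHD7, the gene of CHARGE syndrome, and CHD8, a gene of neurodevelopmental disorders, passed in neither line, with log2 fold changes between -0.11 and 0.10.

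Of the ISWI group, BAZ2B gave the largest rise of any remodeller in MOLT-4, while in DND-41 CHD2 and INO80D had higher values. BAZ2B is a bromodomain partner of ISWI motors and was the lowest of the tested remodellers per kb in both lines. It had 11.2 and 11.2 CPM with ACBI-1 and 3.73 and 4.12 CPM with DMSO in MOLT-4. Levels in DND-41 were 22.6 and 29.8 CPM with ACBI-1 and 17.6 and 17.2 CPM with DMSO. All treated libraries were above all controls of their line, and the 2 treated DND-41 libraries were further apart than any other pair. The log2 fold change was 1.51 ± 0.14 in MOLT-4 (edgeR adjusted p = 2.45e-08), exceeded by 93 of 14239 genes (0.653%). In DND-41 it was 0.61 ± 0.11 (edgeR adjusted p = 6.04e-04), and 0.39 without the second ACBI-1 library (edgeR adjusted p = 4.44e-04). A low gene on the opposite strand overlaps BAZ2B, with 0.137 times its counts. The log2 fold change of that gene did not pass in MOLT-4 (-0.63 ± 0.32, edgeR adjusted p = 0.118) and passed in DND-41 (-0.76 ± 0.23, edgeR adjusted p = 0.0148). Even after the rise, BAZ2B in MOLT-4 with ACBI-1 stayed below its level in DND-41 with DMSO.

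BPTF, the largest subunit of the NURF complex and a reader of H3K4 methylation, was called as a rise in both lines. It had 263 and 250.1 CPM with ACBI-1 and 212 and 215 CPM with DMSO in MOLT-4 (0.26 ± 0.054, edgeR adjusted p = 5.39e-04). In DND-41 it had 199 and 213 CPM with ACBI-1 and 162 and 181 CPM with DMSO (0.28 ± 0.067, edgeR adjusted p = 0.00346). The DND-41 call was lost without the first DMSO library (0.19, edgeR adjusted p = 0.171), and the MOLT-4 call with library size alone (0.18, edgeR adjusted p = 0.0756). RSF1, the partner of SMARCA5 in the RSF complex, had 52.3 and 57.7 CPM with ACBI-1 and 48.2 and 48.7 CPM with DMSO in DND-41 (0.20 ± 0.069, edgeR adjusted p = 0.0326). In MOLT-4 it had 43.2 and 40.1 CPM with ACBI-1 and 41.1 and 42.1 CPM with DMSO and did not pass (edgeR adjusted p = 0.997).

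SMARCA5, the ISWI motor that made up at least 99.4% of the ISWI ATPase transcripts per kb in every library, had 122 and 118 CPM with ACBI-1 and 108 and 106 CPM with DMSO in DND-41 (0.18 ± 0.059, edgeR adjusted p = 0.0227). In MOLT-4 it had 164 and 170.3 CPM with ACBI-1 and 178 and 180.1 CPM with DMSO (-0.10 ± 0.052, edgeR adjusted p = 0.121). The DND-41 calls on RSF1 and SMARCA5 were both weak. Without the first DND-41 DMSO library RSF1 was 0.18 (edgeR adjusted p = 0.213) and SMARCA5 0.18 (edgeR adjusted p = 0.190). Without the second DND-41 DMSO library RSF1 was 0.20 (edgeR adjusted p = 0.159) and SMARCA5 0.17 (edgeR adjusted p = 0.236). RSF1 also missed without the second ACBI-1 library (0.12, edgeR adjusted p = 0.184), and neither was called by DESeq2 or with no filter. The other ISWI partners, BAZ1A of the ACF and CHRAC complexes, BAZ1B of the WICH complex and BAZ2A of the nucleolar NoRC complex, passed in neither line, with log2 fold changes between -0.099 and 0.12.

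Of the INO80 family motors, SRCAP, which deposits H2A.Z, and INO80 were called as rises and EP400 as a fall. SRCAP, the most abundant remodeller in CPM in every library, had 669.8 and 713 CPM with ACBI-1 and 622 and 589 CPM with DMSO in MOLT-4 (0.19 ± 0.063, edgeR adjusted p = 0.0196). DND-41 cells had 739 and 837 CPM with ACBI-1 and 679.6 and 668 CPM with DMSO (0.24 ± 0.069, edgeR adjusted p = 0.0115). Groups did not overlap, yet neither call held when single libraries were left out, and library size alone also ended the MOLT-4 call (0.11, edgeR adjusted p = 0.386). In MOLT-4, SRCAP was 0.15 without the second ACBI-1 library (edgeR adjusted p = 0.169), 0.16 without the second DMSO library (edgeR adjusted p = 0.0566) and 0.095 without both (edgeR adjusted p = 0.554). In DND-41, SRCAP was 0.24 without the first DMSO library (edgeR adjusted p = 0.107), 0.22 without the second (edgeR adjusted p = 0.143) and 0.14 without the second ACBI-1 library (edgeR adjusted p = 0.0192).

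INO80, the motor of the complex of that name, had 87.2 and 89.5 CPM with ACBI-1 and 73.8 and 71.7 CPM with DMSO in MOLT-4 (0.28 ± 0.056, edgeR adjusted p = 4.66e-04). Without both second libraries the value was 0.23 (edgeR adjusted p = 0.110). The DND-41 levels were 76.1 and 82.6 CPM with ACBI-1 and 71.8 and 75.1 CPM with DMSO and did not pass (0.12 ± 0.066, edgeR adjusted p = 0.144), though they were called as a rise without the first ACBI-1 library (0.18, edgeR adjusted p = 0.0214). EP400, the motor of the TIP60 acetyltransferase complex, fell in MOLT-4, to 238 and 219.6 CPM with ACBI-1 against 299 and 306 CPM with DMSO (-0.41 ± 0.056, edgeR adjusted p = 6.79e-06). In DND-41 the groups overlapped, with 248 and 298 CPM with ACBI-1 and 259.9 and 278 CPM with DMSO (0.035 ± 0.077, edgeR adjusted p = 0.752). EP400 in DND-41 was called as a rise without the first ACBI-1 library (0.16, edgeR adjusted p = 0.0106) and was -0.11 without the second (edgeR adjusted p = 0.117).

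Among INO80 subunits, ACTR5, an actin-related protein of the complex, rose in both lines. It had 45.5 and 46.6 CPM with ACBI-1 and 35.0 and 35.2 CPM with DMSO in MOLT-4 (0.39 ± 0.071, edgeR adjusted p = 1.60e-04), and 31.6 and 31.2 CPM with ACBI-1 and 23.8 and 24.7 CPM with DMSO in DND-41 (0.39 ± 0.076, edgeR adjusted p = 7.80e-04). ACTR8, the actin-related protein that joins nucleosome and DNA contacts of INO80, fell in DND-41, to 12.4 and 13.98 CPM with ACBI-1 against 20.4 and 19.6 CPM with DMSO (-0.58 ± 0.10, edgeR adjusted p = 2.05e-04). In MOLT-4 it had 14.7 and 16.2 CPM with ACBI-1 and 16.3 and 16.9 CPM with DMSO and did not pass (edgeR adjusted p = 0.395). The complex thus held one actin-related subunit that rose in both lines and one that fell in DND-41.

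INO80E, an accessory subunit, had 193 and 178 CPM with ACBI-1 and 135 and 135 CPM with DMSO in MOLT-4 (0.46 ± 0.055, edgeR adjusted p = 1.20e-06). Levels in DND-41 were 185 and 193 CPM with ACBI-1 and 151 and 149 CPM with DMSO (0.35 ± 0.058, edgeR adjusted p = 1.95e-04). Its exons overlap those of HIRIP3 on the opposite strand, and HIRIP3 rose too, by 0.66 ± 0.06 in MOLT-4 and 0.52 ± 0.06 in DND-41 (log2, edgeR adjusted p = 2.42e-08 in MOLT-4 and 8.44e-06 in DND-41). The libraries were strand-specific, but the strand setting of the counting is not given in the sources used here, so INO80E and HIRIP3 reads cannot be told apart with certainty. INO80D, another accessory subunit, had 30.9 and 22.9 CPM with ACBI-1 and 18.5 and 20.1 CPM with DMSO in MOLT-4 (0.47 ± 0.11, edgeR adjusted p = 0.00144). In DND-41 it had 23.8 and 37.4 CPM with ACBI-1 and 20.6 and 20 CPM with DMSO (0.61 ± 0.15, edgeR adjusted p = 0.00439). One treated library per line carried most of the INO80D rise: without the first MOLT-4 ACBI-1 library it was 0.25 (edgeR adjusted p = 0.0658), and without the second DND-41 ACBI-1 library 0.24 (edgeR adjusted p = 0.0316). Without both second libraries the MOLT-4 value was 0.72 (edgeR adjusted p = 0.0312). DESeq2 did not call INO80D in DND-41 (DESeq2 adjusted p = 0.154). A low gene on the opposite strand overlaps INO80D, with 0.141 times its counts. That gene did not pass in MOLT-4 (-0.55 ± 0.27, edgeR adjusted p = 0.104) and fell in DND-41 (-0.56 ± 0.16, edgeR adjusted p = 0.0121). INO80B and INO80C, further subunits, and the AAA+ ATPases RUVBL1 and RUVBL2 passed in neither line, with log2 fold changes between -0.31, for INO80C in MOLT-4, and 0.055. With library size alone, RUVBL1 (-0.21, edgeR adjusted p = 0.0285) and INO80C (-0.39, edgeR adjusted p = 0.0392) were called as falls in MOLT-4. RUVBL1 was also called there with a minimum count of 50 (-0.14, edgeR adjusted p = 0.0400). Its exons overlap SEC61A1 (2.26 times its counts) and EEFSEC (0.378 times) on the opposite strand, so the strand limit given for INO80E holds here too.

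The other SNF2 ATPases held several rises common to both lines. SMARCAL1, an annealing helicase of stalled replication forks, had 51.3 and 53.9 CPM with ACBI-1 and 36.8 and 39.8 CPM with DMSO in MOLT-4 (0.45 ± 0.072, edgeR adjusted p = 3.57e-05). DND-41 cells had 59.3 and 58.4 CPM with ACBI-1 and 40.2 and 39.7 CPM with DMSO (0.57 ± 0.065, edgeR adjusted p = 5.58e-06). HELLS, the lymphoid-specific helicase that supports DNA methylation, had 54.4 and 58.8 CPM with ACBI-1 and 43.8 and 39.9 CPM with DMSO in MOLT-4 (0.43 ± 0.072, edgeR adjusted p = 6.43e-05). The DND-41 levels were 40.4 and 41.9 CPM with ACBI-1 and 32.9 and 31.2 CPM with DMSO (0.37 ± 0.071, edgeR adjusted p = 6.26e-04). Both genes rose in both lines with no overlap of groups, and both calls held under every alternative run.

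ATRX, which with DAXX deposits histone H3.3 in heterochromatin, had 59.4 and 59.9 CPM with ACBI-1 and 46.2 and 51.3 CPM with DMSO in MOLT-4 (0.29 ± 0.069, edgeR adjusted p = 0.00228). Without both second libraries that value was 0.35 (edgeR adjusted p = 0.0560), and with library size alone 0.20 (edgeR adjusted p = 0.0694). In DND-41 ATRX had 75.9 and 91.6 CPM with ACBI-1 and 59.4 and 57.3 CPM with DMSO (0.54 ± 0.081, edgeR adjusted p = 9.39e-05), a rise that held under every alternative run. CHD1L, a remodeller activated by poly(ADP-ribose) at DNA breaks, fell in DND-41, to 75.3 and 72.5 CPM with ACBI-1 against 92.4 and 97.6 CPM with DMSO (-0.35 ± 0.063, edgeR adjusted p = 3.99e-04). In MOLT-4 it had 68.8 and 76.6 CPM with ACBI-1 and 82.2 and 78.2 CPM with DMSO (-0.15 ± 0.063, edgeR adjusted p = 0.0659), where it was called as a fall without the second ACBI-1 library (-0.22, edgeR adjusted p = 0.0357), without the second DMSO library (-0.18, edgeR adjusted p = 0.0311) and with library size alone (-0.23, edgeR adjusted p = 0.0230). SMARCAD1, which acts in DNA end resection and heterochromatin upkeep, had 70.6 and 69.8 CPM with ACBI-1 and 62.8 and 62.1 CPM with DMSO in DND-41 (0.18 ± 0.062, edgeR adjusted p = 0.0279). That call was lost without the first DMSO library (0.18, edgeR adjusted p = 0.202) and without the second (0.17, edgeR adjusted p = 0.237), and was made neither by DESeq2 nor with no filter. In MOLT-4 SMARCAD1 had 91.2 and 91.8 CPM with ACBI-1 and 89.3 and 85.9 CPM with DMSO and did not pass (edgeR adjusted p = 0.404).

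The calls of the 2 lines can be set side by side, since they share no library. CHD2, BAZ2B, BPTF, SRCAP, INO80D, INO80E, ACTR5, SMARCAL1, HELLS and ATRX rose in both, 10 genes or 25% of the 40, against 12% of the 12859 genes tested in both lines. CHD4, MTA3, GATAD2A, GATAD2B, HDAC1 and CHD6 fell in both, 6 genes or 15%, against 15.6%. Of the rises, the calls on BPTF, SRCAP and INO80D were lost under 1 alternative or more in each line, and that on ATRX in MOLT-4. Of the falls, the calls on GATAD2B and CHD6 were lost in this way in MOLT-4. How many of all genes held under every alternative was not counted. Of the 40, 0 were called in opposite directions, against 1.68% of all genes, and 14 (35%) passed in neither line, against 40.1%. The log2 fold changes had the same sign in 29 of 40 genes, 72.5%, against 73.2% of all genes, so the share with the same sign was near the background. Across the 40 genes Pearson's r between lines was 0.893 and Spearman's rho 0.851, and without CHD4 0.797 and 0.839. These are descriptions over genes of the same libraries, which are not independent replicates.

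**Figure D3:**
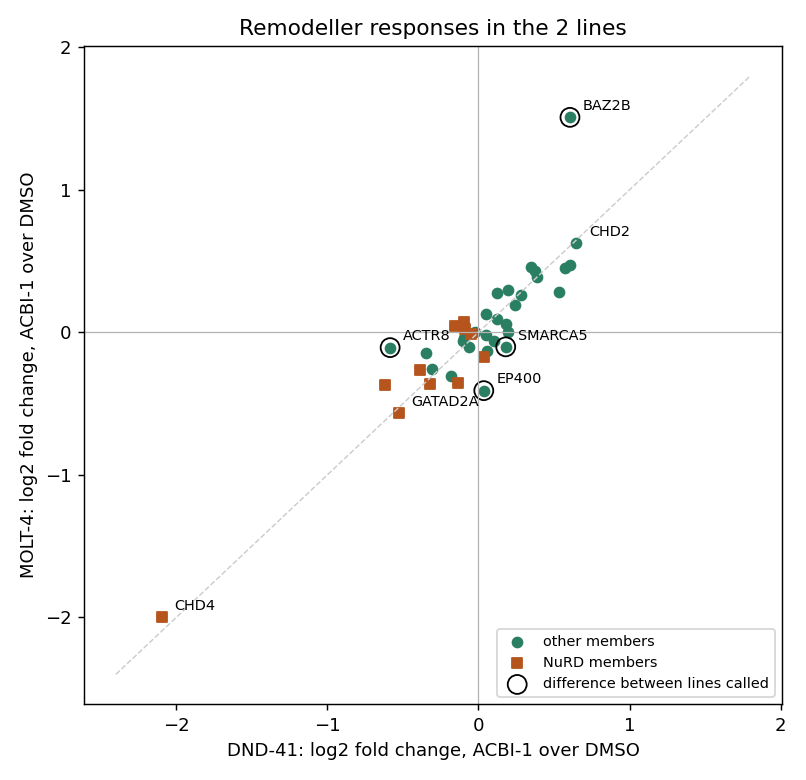
Log2 fold change, ACBI-1 over DMSO, in MOLT-4 (y axis) against DND-41 (x axis) for the 40 tested remodeller genes, with NuRD genes as squares and the line of equality dashed. CHD4 lies alone at the lower left, and circles mark the 4 genes whose effect differed between the lines, of which BAZ2B lies furthest above the dashed line.

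The test of the difference itself, MOLT-4 minus DND-41, called 4 of the 40 genes, 10%, against 13.3% of the 15498 genes tested. The change was called as higher in MOLT-4 for 2 remodellers, against 7.18% of all genes, and as lower for 2, against 6.17%. BAZ2B rose further in MOLT-4, by 0.92 ± 0.20 on the log2 scale (edgeR adjusted p = 0.00309). ACTR8 fell in DND-41 and did not pass in MOLT-4, with a difference of 0.50 ± 0.14 (edgeR adjusted p = 0.0205). The EP400 change was lower in MOLT-4, with a difference of -0.43 ± 0.10 (edgeR adjusted p = 0.00876), and SMARCA5 likewise, with -0.26 ± 0.076 (edgeR adjusted p = 0.0265). The share called was near the background.

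None of the 4 differences was called under every alternative run. Without both second MOLT-4 libraries all 4 were lost, with BAZ2B at 0.97 (edgeR adjusted p = 0.0577), ACTR8 at 0.43 (0.199), EP400 at -0.38 (0.146) and SMARCA5 at -0.30 (0.113). BAZ2B was called in all 8 fits that left out a single library, at 0.74 to 1.14. EP400 missed without the first DND-41 DMSO library (-0.37, edgeR adjusted p = 0.0756) and without the second MOLT-4 ACBI-1 library (-0.37, edgeR adjusted p = 0.0740), and moved to -0.28 without the second DND-41 ACBI-1 library. ACTR8 missed in 4 of the 8 such fits, without the first DND-41 ACBI-1, the first DND-41 DMSO, the second MOLT-4 ACBI-1 or the first MOLT-4 DMSO library, at 0.42 to 0.47. SMARCA5 missed in 7 of 8, at -0.29 to -0.23, and was called without the second DND-41 ACBI-1 library alone. Library size alone moved the median difference of all genes to -0.12, and ACTR8 then missed at 0.37 (edgeR adjusted p = 0.132), while the other 3 kept sign and call. DESeq2 did not call ACTR8 either (0.49, DESeq2 adjusted p = 0.0956).

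**Figure D4:**
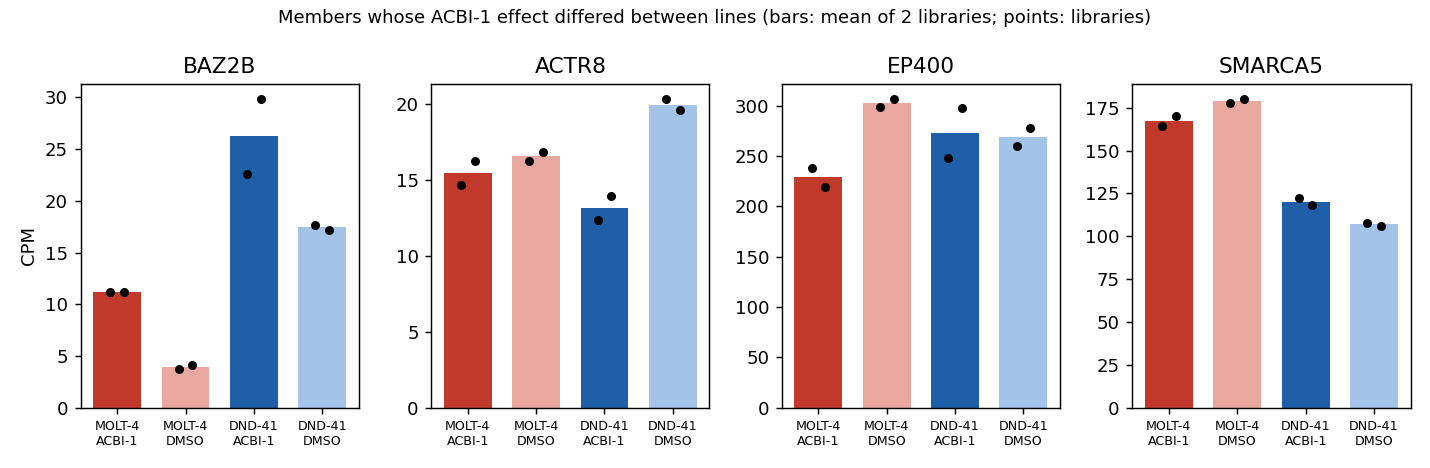
Level in CPM (y axis, starting at 0) of BAZ2B, ACTR8, EP400 and SMARCA5 by group (x axis), with points for libraries and bars for the mean of 2 libraries. BAZ2B was 11.2 CPM in both treated MOLT-4 libraries against at most 4.12 CPM in the MOLT-4 controls, and EP400 was lower with ACBI-1 in MOLT-4 but overlapped in DND-41.

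In DMSO-treated cells the lines differed in most remodeller levels: 13 of 40 were higher in MOLT-4 and 16 lower, 72.5%, against 67.4% of all genes tested in this comparison, of which 34.7% were higher and 32.7% lower. Per kb, MTA2 led in MOLT-4 at a mean of 75.3 and RUVBL2 in DND-41 at 67.7. The next places went to RUVBL2 (61.4), HDAC1 (52.5), BAZ1B (46.8) and SRCAP (44.3) in MOLT-4, and to MTA2 (60.7), BAZ1B (51.6), SRCAP (49.3) and HDAC1 (44.1) in DND-41. BAZ2B, at 0.193 per kb in MOLT-4 and 0.855 in DND-41, was the lowest tested gene in both. The largest differences, MOLT-4 over DND-41, were in CHD3 (-2.63 ± 0.059, edgeR adjusted p = 6.08e-18), BAZ2B (-2.15 ± 0.12, edgeR adjusted p = 1.37e-11) and CHD9 (-1.06 ± 0.06, edgeR adjusted p = 9.21e-12), all lower in MOLT-4. SMARCA5 (0.74 ± 0.05, edgeR adjusted p = 1.34e-10), CHD1 (0.66 ± 0.051, edgeR adjusted p = 1.04e-09) and ACTR5 (0.53 ± 0.073, edgeR adjusted p = 2.82e-06) led the genes higher in MOLT-4. CHD2 was lower in MOLT-4 (-0.59 ± 0.052, edgeR adjusted p = 7.82e-09), and CHD4 was higher (0.39 ± 0.053, edgeR adjusted p = 3.28e-06). All of these named differences held under every alternative run, as did 21 of the 29 calls in all. The other 8 calls, on HDAC1, HDAC2, BAZ1B, SRCAP, EP400, INO80E, ACTR8 and RUVBL2, were each lost under 1 alternative or more.

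**Figure D5:**
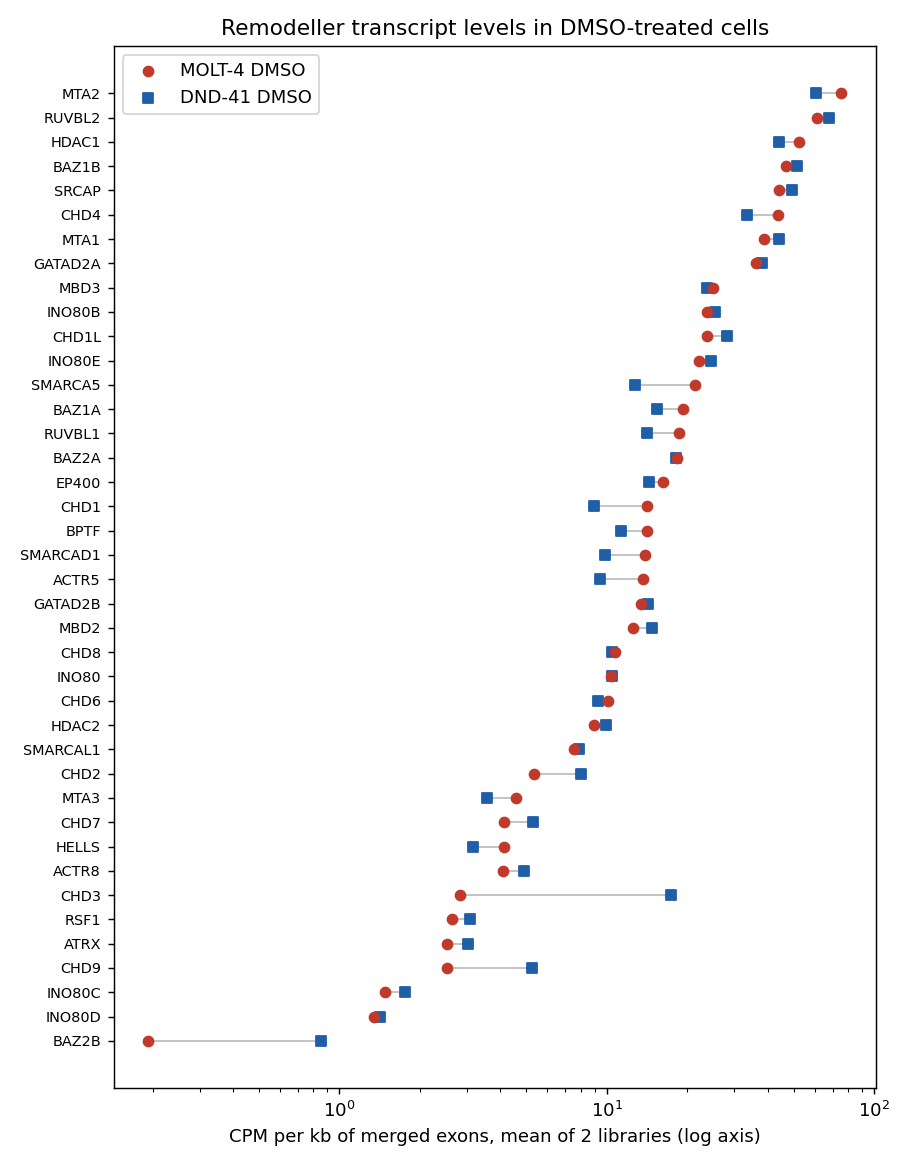
Mean level in CPM per kb of merged exons (x axis, log scale) in DMSO-treated MOLT-4 cells (circles) and DND-41 cells (squares) for the 40 tested remodeller genes, ordered by the MOLT-4 level. CHD3, BAZ2B and CHD9 show the widest gaps, with DND-41 to the right.

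A list of 49 partner genes, drawn up with earlier results of these data known, gave the wider setting. In MOLT-4, 13 of the 47 tested rose and 9 fell, and in DND-41, 11 of 48 rose and 7 fell, 46.8% and 37.5% against the backgrounds of 45.1% and 43.2%. Both counts moved with the libraries and the scaling. In MOLT-4, 5 partners rose with library size alone, 8 rose without the second ACBI-1 library, 5 fell with DESeq2, and 5 rose and 4 fell without both second libraries. In DND-41, 6 rose without the first DMSO library, 3 fell without the second DMSO library or with DESeq2, and 4 fell with no filter. The difference between lines was called for 4 of 48 partners, 8.33%, against 13.3% of all genes, with 4 higher in MOLT-4 and 0 lower. That split was not firm, since 0 partners were lower in 8 of 16 alternatives and up to 6 in the rest. The number higher ranged from 2 to 4. Of the NuRD partners, 8 were tested in each line. None rose in either line by edgeR at an adjusted p below 0.05, while 3 (37.5%) fell in MOLT-4, against 24.4% of all genes, and 2 (25%) in DND-41, against 23.2%. Of the MOLT-4 falls, CHD5 (-0.72 ± 0.23, edgeR adjusted p = 0.0138) was called under 8 of 13 alternatives and ZFPM1 (-0.28 ± 0.10, edgeR adjusted p = 0.0264) under 6 of 13, and DESeq2 called neither. KDM1A, the H3K4 demethylase, had 212 and 228 CPM with ACBI-1 and 256 and 267 CPM with DMSO in MOLT-4 (-0.25 ± 0.056, edgeR adjusted p = 0.00105). Levels in DND-41 were 148 and 133 CPM with ACBI-1 and 158 and 166 CPM with DMSO (-0.20 ± 0.065, edgeR adjusted p = 0.0225), a call lost without the second ACBI-1 library or either DMSO library, at -0.24 to -0.13, and also with no filter (-0.21, edgeR adjusted p = 0.0520) and with DESeq2 (-0.20, DESeq2 adjusted p = 0.0531). RBBP7, a histone-binding subunit, fell in DND-41, to 123 and 121 CPM with ACBI-1 against 159 and 152 CPM with DMSO (-0.34 ± 0.059, edgeR adjusted p = 3.19e-04). In MOLT-4 RBBP7 had 134 and 138 CPM with ACBI-1 and 136 and 133 CPM with DMSO, and the difference between lines passed (0.37 ± 0.077, edgeR adjusted p = 0.00300), though not without both second MOLT-4 libraries (0.30, edgeR adjusted p = 0.124) or with library size alone (0.24, edgeR adjusted p = 0.118).

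Of the 21 tested partners of INO80, SRCAP and TIP60, 6 rose and 4 fell in MOLT-4 (47.6% called), and 7 rose and 1 fell in DND-41 (38.1% called), near or below the same backgrounds of 45.1% in MOLT-4 and 43.2% in DND-41. VPS72, the H2A.Z chaperone of SRCAP and TIP60, rose to 144 and 137 CPM with ACBI-1 against 114 and 111 CPM with DMSO in MOLT-4 (0.32 ± 0.053, edgeR adjusted p = 6.14e-05). In DND-41 it had 136 and 124 CPM with ACBI-1 and 101 and 92.5 CPM with DMSO (0.43 ± 0.069, edgeR adjusted p = 1.37e-04). UCHL5, a deubiquitinase that binds INO80, fell to 28.6 and 29.8 CPM with ACBI-1 against 37.6 and 38.7 CPM with DMSO in MOLT-4 (-0.39 ± 0.072, edgeR adjusted p = 1.72e-04), and to 31.5 and 27.6 against 42.5 and 41.3 CPM in DND-41 (-0.49 ± 0.078, edgeR adjusted p = 1.40e-04). Of 13 further SNF2-family ATPases, 4 rose and 2 fell in each line, 46.2%, again near the backgrounds, though not all were the same genes. RAD54L was called as a rise in MOLT-4 (0.32 ± 0.073, edgeR adjusted p = 0.00123). In DND-41 it was called as a fall (-0.15 ± 0.058, edgeR adjusted p = 0.0492), under only 3 of 12 alternatives. Its difference between lines passed (0.49 ± 0.10, edgeR adjusted p = 0.00299) and held under 16 of 16 alternatives. SMARCA4, a BAF motor that ACBI-1 targets as a protein, rose to 566 and 585 CPM with ACBI-1 against 460.2 and 458 CPM with DMSO in DND-41 (0.34 ± 0.058, edgeR adjusted p = 2.84e-04). In MOLT-4 it had 817 and 818 CPM with ACBI-1 and 696 and 731 CPM with DMSO (0.19 ± 0.064, edgeR adjusted p = 0.0187). That call was lost with library size alone (0.11, edgeR adjusted p = 0.398), and without either ACBI-1 library or both second libraries, at 0.20 to 0.22. SMARCA2, the other targeted motor, was called as a fall in DND-41 (-0.19 ± 0.072, edgeR adjusted p = 0.0433), under 6 of 12 alternatives. It was not called in MOLT-4. The SMARCA2 difference between lines passed (0.35 ± 0.11, edgeR adjusted p = 0.0346), under 6 of 16 alternatives. Of the partners of ISWI, ATRX and HELLS, 3 of 5 tested rose in MOLT-4, 60%, against 20.7% of all genes. In DND-41, 2 of 6 fell, 33.3%, against 23.2% of all genes. The MOLT-4 rises, in POLE3, CHRAC1 and DEK, were all lost with library size alone, at 0.089 to 0.17. They were also lost without both second libraries, at 0.043 to 0.14. CECR2, which fell in DND-41 (-1.23 ± 0.42, edgeR adjusted p = 0.0277), was called under 7 of 11 alternatives and not by DESeq2 (DESeq2 adjusted p = 0.138). CDCA7, the partner that recruits HELLS, had 182 and 174 CPM with ACBI-1 and 302 and 297 CPM with DMSO in DND-41 (-0.74 ± 0.058, edgeR adjusted p = 1.18e-07). In MOLT-4 CDCA7 had 211 and 191 CPM with ACBI-1 and 224 and 201 CPM with DMSO, and the difference between lines passed (0.67 ± 0.09, edgeR adjusted p = 3.65e-05).

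The fold changes in the authors' deposited table for MOLT-4 ran as DMSO over ACBI-1 and those for DND-41 as ACBI-1 over DMSO, since 0 of the 6425 genes called here in MOLT-4 and 6056 of 6056 in DND-41 had the sign found from the counts. Read as ACBI-1 over DMSO, the authors' deposited table for MOLT-4 held 12 remodellers that rose and 9 that fell at an adjusted p below 0.05, and all 21 calls made here were among them. The authors' deposited table for DND-41 held 9 rises and 8 falls, which included 17 of the 21 calls made here. SMARCA5, RSF1, SMARCAD1 and INO80D were the 4 that missed there, with adjusted p from 0.0731, for SMARCA5, to 0.151 in the authors' deposited table. CHD4 stood at -1.99 in MOLT-4 and -2.10 in DND-41 in the authors' deposited tables once both were read in that direction.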

How the data were processed

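Strand-specific paired-end RNA libraries of 100-bp reads were compared, 2 per group in 4 groups taken from the labels. The deposited counts are unscaled whole numbers per gene, and STAR 2.5.2a, featureCounts, DESeq2 1.12.4 and hg19 appear in the submitters' processing notes. Annotation and strand setting were not given in the sources used here. The authors' deposited tables hold log2 fold changes and their standard errors, raw and adjusted p-values, and score columns for mean normalized count and test statistic, per the file headers.

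All count columns were mapped to libraries, and the tables of both lines were joined by gene identifier. For each line, edgeR 4.0.16 in R 4.3.3 was run on the whole table with filterByExpr (minimum count 10), TMM scaling and its quasi-likelihood F test, treatment being the sole term. P-values were adjusted by Benjamini-Hochberg, with a threshold of 0.05. Differences between lines came from the line by treatment interaction in a fit of 8 libraries, and DMSO levels from the 4 DMSO libraries. SEs were obtained as |log2 fold change| over the root of F. Levels are CPM over the TMM effective sizes of all 8 libraries. Exon lengths came from GENCODE 29 on GRCh38, matched by identifier. Limits given for low counts cover counting error only. No 2 libraries of a group agreed within sampling noise (chi-square per degree of freedom 3.64 to 15.4).

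All 41 genes may be named. Values per library are given for those called in the comparison or in the difference, and for a motor or defining subunit per complex. Partner genes may be named where they are among the 3 rises or 3 falls of their list with the lowest adjusted p in a line. The member genes, lists and printed promoters were chosen with earlier results of these data known. Alternatives changed the scaling (DESeq2-type size factors, or library size alone), the filter (none, or a minimum count of 50), the tool (DESeq2 1.42.0), the threshold (0.01) and the design (a replicate block, or all 8 libraries in 1 fit). They also dropped single libraries, in which case the remaining library of a group was taken to vary as the others do. Leaving out both second MOLT-4 libraries was added after seeing the data. The scripts were tested on simulated counts. Figures and tables used Python 3.11.15, numpy 2.4.6, pandas 2.3.3 and matplotlib 3.10.9.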

Additional observations from a re-analysis of the deposited data

Results flagged for a closer look

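For 4 remodeller genes the response to ACBI-1 differed between the lines by the interaction test over 8 libraries, given as MOLT-4 minus DND-41 on the log2 scale. BAZ2B had a difference of 0.92, with log2 fold changes of 1.51 ± 0.14 in MOLT-4 and 0.61 ± 0.11 in DND-41, and rose in 2 of 2 treated libraries of each line. ACTR8 had a difference of 0.50, with -0.11 ± 0.10 in MOLT-4 and -0.58 ± 0.10 in DND-41. EP400 had a difference of -0.43, with -0.41 ± 0.056 in MOLT-4 and 0.035 ± 0.077 in DND-41. SMARCA5 had a difference of -0.26, with -0.10 ± 0.052 in MOLT-4 and 0.18 ± 0.059 in DND-41. These are 10% of the 40 tested remodellers, against 13.3% of all genes.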

How the results depend on the processing

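Of the 21 remodeller calls in each line, 12 in MOLT-4 and 15 in DND-41 held under every alternative run, and so did 21 of the 29 calls on DMSO levels and none of the 4 differences between lines. Most calls that alternatives ended are given beside each gene, apart from those ended by a threshold of 0.01 alone, and the cause was not tested. With no filter, the DND-41 calls on SMARCAD1 (0.17, edgeR adjusted p = 0.0885), SMARCA5 (0.17, 0.0724) and RSF1 (0.19, 0.102) were lost. With 2 libraries per group, single libraries decide small changes, and genes near 3 counts, such as SMARCA1, cannot be compared at this depth.

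The numbers paired the libraries only by name: same-numbered libraries deviated together with r of 0.244 in MOLT-4 and 0.159 in DND-41, and -0.0707 between the DMSO libraries of the lines, and no label ties the numbers to a shared culture. With the number as a replicate block, 13 remodellers rose and 11 fell in MOLT-4, 14 rose and 10 fell in DND-41, 2 were higher and 2 lower in the difference, and 13 were higher and 16 lower in the DMSO levels. The block added the DND-41 calls on HDAC2 (-0.16, edgeR adjusted p = 0.0144), MTA2 (-0.14, 0.0301) and CHD9 (0.19, 0.00315), and the MOLT-4 calls on CHD1L (-0.15, 0.0316), RUVBL1 (-0.13, 0.0449) and CHD1 (0.13, 0.0497). Besides the genes named with such values, leaving out 1 library added calls on CHD7 (-0.18), INO80C (-0.44 and -0.43) and RUVBL1 (-0.20) in MOLT-4 and on CHD7 (-0.21), INO80B (-0.21), BAZ2A (0.18) and CHD8 (0.14) in DND-41, all log2.

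Library size alone gave 1781 rises over all genes in MOLT-4 and, for the difference, 499 genes and 1 remodeller higher. DESeq2 gave 1962 rises over all genes in MOLT-4, 1856 in DND-41 and 1 remodeller with a higher difference. At a threshold of 0.01, 1838 genes rose in DND-41, and the difference kept 619 genes higher and 559 lower, with 1 remodeller each way. Without both second MOLT-4 libraries, 1357 genes rose and 2232 fell in MOLT-4, and for the difference 440 genes were higher and 504 lower, with 0 remodellers each way by edgeR. Leaving out 1 library gave 8 to 18 remodellers and 1745 to 3044 genes that rose in DND-41. For the difference it gave 1 to 3 remodellers higher and 0 to 2 lower, and 699 to 1207 genes higher and 621 to 989 lower.

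Values near 0 that were not called changed sign as follows. RSF1 in MOLT-4 was 0.00261 with DESeq2-type size factors, 0.0109 with no filter, 0.00254 with DESeq2, 0.00354 with all 8 libraries, 0.0625 without both second libraries, and -0.0524 to 0.0592 in fits without 1 library, where it was 0.0240 without the second DMSO library. With library size alone, SMARCAD1 was -0.0204, HDAC2 -0.0315 and CHD3 -0.0106 in MOLT-4, and the CHD4 difference was -0.00528. CHD3 in MOLT-4 was -0.0200 to 0.166 in fits without 1 library and -0.0718 without both second libraries. In DND-41, such fits gave EP400 -0.106 to 0.159, of which the highest, without the first ACBI-1 library, was called as a rise (edgeR adjusted p = 0.0106), with -0.0203 without the first DMSO library, and MTA1 -0.0188 to 0.0832.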
